A study of Homo sapiens with 11 samples.

Results

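Messenger RNA levels of 5 membrane enzymes that trim peptides or break down nucleotides outside the cell are described here: the peptidases DPP4 (CD26) and MME (CD10), the ectonucleotidases ENTPD1 (CD39) and NT5E (CD73), and BST1 (CD157), which acts on NAD. The members were chosen by name from the 594 endogenous probes of an nCounter immune panel, with their levels in these samples already known. All 5 of 5 were on the panel, and 3 of them (DPP4, NT5E and BST1) had 1 or more group means at or above 20 units, the level used here as a floor. MME and ENTPD1 stayed under 20 units in every sample. Because the levels entered the choice, the values and differences of the 5 genes are given as a description, with intervals and without p-values.

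The cells were THP-1, an established human monocytic leukaemia line, used as monocytes or as macrophages made from them with the phorbol ester PMA. The nCounter counts colour-barcoded probes hybridized to RNA without amplification, here from 50 ng of total RNA per sample. All cells spent 24 h in charcoal-stripped medium, which is poor in steroid hormones, and then 6 h with vehicle or with dexamethasone (Dex), a synthetic glucocorticoid. Monocytes that received vehicle form Mono_Vehicle (3 samples), and monocytes that received 100 nM Dex form Mono_Dex (3 samples). Cells given PMA for 3 h, with 24 h of recovery, form Mac_Vehicle (3 samples) after vehicle and Mac_Dex (2 samples) after 100 nM Dex. Another Mac_Dex sample was left out by the authors because it grouped with controls and showed no rise of FKBP5, so values that are high in Mac_Dex are not free of that choice. All samples are 1 cell line, the labels do not say whether replicates were separate cultures, and any spread given below may be partly technical.

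The enzymes sit on pathways that shape the surroundings of immune cells. DPP4 is a serine peptidase that removes dipeptides from the N-terminus of chemokines and peptide hormones, and in humans it also binds adenosine deaminase. MME, or neprilysin, is a zinc peptidase that degrades small peptides such as enkephalins and substance P. ENTPD1 turns extracellular ATP and ADP into AMP, NT5E turns AMP into adenosine, and adenosine dampens many responses of myeloid cells. BST1 is a glycosylphosphatidylinositol (GPI)-anchored relative of CD38 that hydrolyses NAD and marks myeloid cells, and NT5E carries the same kind of anchor.

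The genes lie on different chromosomes of GRCh38.p14, in RefSeq's annotation. DPP4 is at chr2:161992245-162074215 on the minus strand, MME at chr3:155024202-155183729 and ENTPD1 at chr10:95694185-95877266. NT5E is at chr6:85450083-85495784 and BST1 at chr4:15703065-15774173. RefSeq's promoter table matched 4 of the 5 by symbol, and the promoters of DPP4 and NT5E, the members that were higher in Mac_Dex than in Mac_Vehicle, are shown. Each run is the 250 bases before the annotated start, 5′ to 3′ on the gene's strand, with CG dinucleotides in capitals. The first is chr2:162074216-162074465 on the minus strand and the second chr6:85449833-85450082 on the plus strand.
DPP4: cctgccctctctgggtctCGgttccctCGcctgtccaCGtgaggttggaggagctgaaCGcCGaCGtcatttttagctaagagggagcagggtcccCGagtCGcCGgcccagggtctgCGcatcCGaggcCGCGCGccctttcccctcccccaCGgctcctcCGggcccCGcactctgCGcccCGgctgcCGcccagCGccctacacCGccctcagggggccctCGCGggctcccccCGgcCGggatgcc
NT5E: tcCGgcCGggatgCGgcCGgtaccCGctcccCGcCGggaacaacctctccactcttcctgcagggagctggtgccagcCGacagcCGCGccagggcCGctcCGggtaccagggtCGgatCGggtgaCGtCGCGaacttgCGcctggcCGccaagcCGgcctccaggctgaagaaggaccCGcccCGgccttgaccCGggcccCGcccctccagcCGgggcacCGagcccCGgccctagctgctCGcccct
Both runs are rich in G and C. The DPP4 run is 73.6% G or C and holds 26 CG dinucleotides, and the NT5E run is 75.2% G or C and holds 28. The medians over all 35116 promoter runs of this length are 58% and 11 CG dinucleotides. Of those runs, 80.4% hold fewer CG dinucleotides than that of DPP4 and 84.1% fewer than that of NT5E. A search on both strands for AGAACA, a hexamer that the glucocorticoid receptor binds, matched neither run, and 12.4% of all runs hold it. TGANTCA, the pattern of AP-1 sites, was also in neither, and 6.57% of all runs hold it. Among the other members, AGAACA was in 1 of 5 ENTPD1 promoter runs and in none of 4 MME runs, and TGANTCA was in none of these. These letters are a description of the windows only.

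The deposited values are a normalized signal in linear units. The steps between the low values fit a net count, left after background subtraction, multiplied by a factor of its sample, apart from values at the lowest level of the sample (1 unit in each monocyte sample), which are set values and no measured level. The factor was 0.659 to 0.965 for monocytes and 1.21 to 1.52 for macrophages. Summed over the panel, monocyte samples held 372345 to 420466 units and macrophage samples 742895 to 889658. Before the factor, the summed net counts were 412564 to 565445 in monocytes and 551860 to 675213 in macrophages, and these ranges overlapped. The highest of the negative control probes, put on the scale of the same sample's values, lay at 5.91 to 12.9 units in monocytes and at 17.2 to 18.9 in macrophages. FKBP5, a target of the glucocorticoid receptor, was 1237 ± 27.9 units (SD, n = 3) in Mono_Vehicle and 24908 ± 79.2 (SD, n = 3) in Mono_Dex, and 488 ± 117 (SD, n = 3) in Mac_Vehicle and 37671 ± 516 (SD, n = 2) in Mac_Dex. Of 6 macrophage markers on the panel, 5 reached the floor and MRC1 did not, and their signals summed to 752 to 1034 units per monocyte sample and 15612 to 20693 per macrophage sample.

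DPP4 was measured above background in Mac_Dex and in no other group. It read 176 and 194 units in the 2 Mac_Dex samples. In the 3 Mac_Vehicle samples it read 1.21, 1.42 and 1.36 units, of which 1.21 and 1.42 are the lowest levels of their samples. The monocytes gave 1.33, 1.00 and 4.59 units with vehicle and 1.88, 2.28 and 8.39 units with Dex. The 9 samples outside Mac_Dex were all under the floor and all under the highest negative control of their own sample, and both Mac_Dex samples were far above it, by up to 10.8 times. Their net counts, before the sample factor, were 120 (119.9) and 128 (127.8), against 12.9 and 11.8 for the highest negative control. The Mac_Dex mean of 185 ± 12.6 units (SD, n = 2) was at least 9.26-fold higher than in Mac_Vehicle, and also at least 9.26-fold higher than in Mono_Dex, taking the lower mean as the floor of 20 units in both cases. In these bulk samples, more cells with DPP4 RNA and more DPP4 RNA per cell cannot be told apart.

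On the log2(value + 1) scale the difference between Mac_Dex and Mac_Vehicle was 6.32 (SE 0.58, 95% interval 5.06 to 7.58). Its size depends on the pseudocount, since Mac_Vehicle was at background, and it was 3.26 with a pseudocount of 20 units. In monocytes the difference was 0.59 (SE 0.52, interval -0.54 to 1.72), with both groups under the floor. DPP4 is also a surface marker of activated T cells. Of 9 T-cell markers on the panel other than CD4, none reached the floor in any group, and no single value exceeded 11.1 units. Their summed signal was 13.2 to 19.1 units in Mac_Dex and 18.7 to 28.5 in Mac_Vehicle. CD4, which myeloid cells also carry, was above the floor in every group. The source of the DPP4 RNA was not tested.

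**Figure D1:**
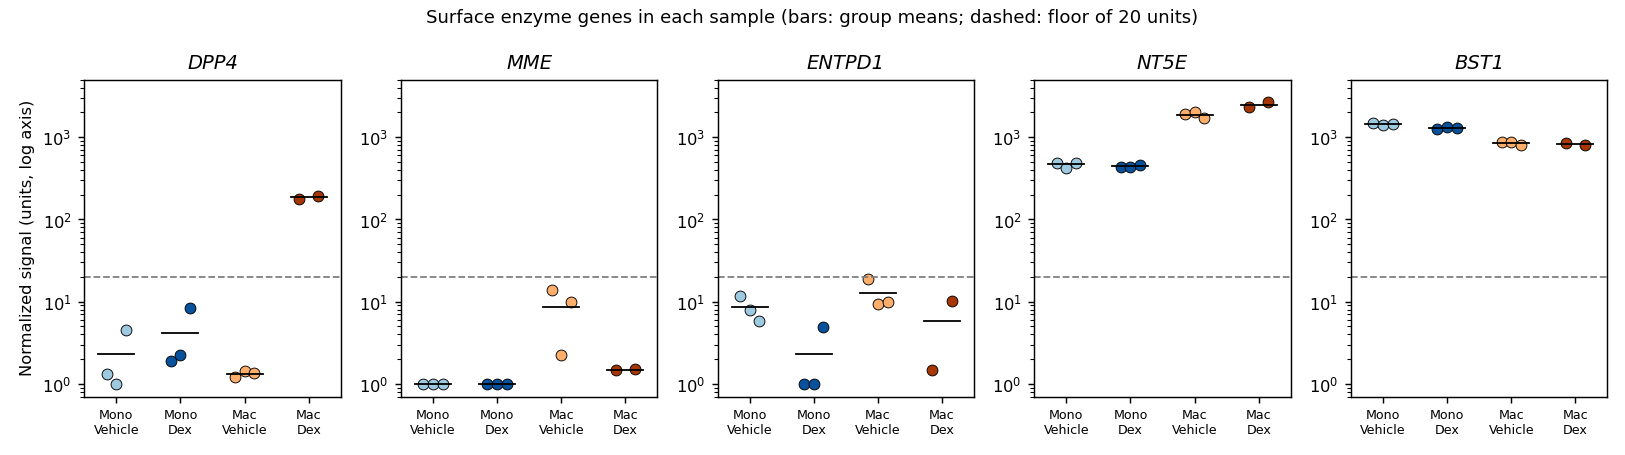
Normalized signal (units, log axis) of the 5 enzyme genes in each of the 11 samples by group, with bars at group means and a dashed line at the floor of 20 units. DPP4 passes the floor in the 2 Mac_Dex samples, MME and ENTPD1 stay under it in all samples, and NT5E and BST1 are above it in all samples, with NT5E higher and BST1 lower in macrophages.

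MME was not detected in any sample. It stood at 1.00 unit, the lowest value the table holds, in all 6 monocyte samples. The Mac_Vehicle samples read 14.08, 2.24 and 9.90 units and the Mac_Dex samples 1.47 and 1.52, which are the lowest levels of those samples and set values. All 11 values lay under the highest negative control of their own sample, the nearest at 0.744 of it. At this depth no level and no difference of MME can be given.

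ENTPD1, the enzyme ahead of NT5E in the path from ATP to adenosine, was likewise at background. It read 11.82, 7.89 and 5.91 units in Mono_Vehicle and 1.00, 1.00 and 4.97 in Mono_Dex. In macrophages it read 18.93, 9.34 and 9.90 units with vehicle and 1.47, the lowest level of its sample, and 10.30 with Dex. No value exceeded the highest negative control of its sample, and in Mono_Vehicle replicates 1 and 6 and Mac_Vehicle replicate 1 the value equalled that control within rounding. The groups with vehicle and with Dex did not overlap in monocytes and overlapped in macrophages, but all these values are within background.

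**Figure D2:**
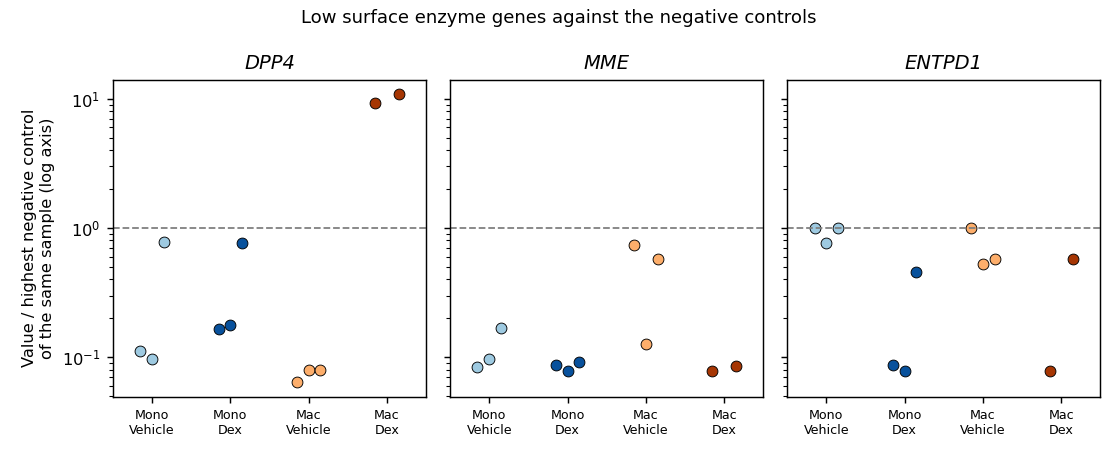
Value of DPP4, MME and ENTPD1 divided by the highest negative control of the same sample (log axis), by group; the dashed line marks a ratio of 1. The 2 Mac_Dex samples of DPP4 are above the line at up to 10.8, and every other point is at or below it.

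NT5E was present in every sample, was about 4 times as high in macrophages as in monocytes on the deposited scale, and was highest in Mac_Dex. With vehicle, monocytes read 491, 421 and 493 units and macrophages 1906, 2037 and 1698. With Dex, monocytes read 436, 436 and 461 units and macrophages 2341 and 2647. Every macrophage sample was above every monocyte sample, both Mac_Dex samples were above all 3 Mac_Vehicle samples, and the monocyte groups overlapped. The values were 33.8 to 148 times the highest negative control, so background had little share in them.

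The group means of NT5E were 468 ± 41.1 units (SD, n = 3) in Mono_Vehicle, 444 ± 14.6 (SD, n = 3) in Mono_Dex, 1880 ± 171 (SD, n = 3) in Mac_Vehicle and 2494 ± 216 (SD, n = 2) in Mac_Dex. Ordered from low to high, the groups ran Mono_Dex, Mono_Vehicle, Mac_Vehicle, Mac_Dex, and the lowest pair did not differ beyond their spread. In macrophages NT5E was 1.33-fold higher with Dex than with vehicle, a log2 difference of 0.41 (SE 0.09, interval 0.22 to 0.60). In monocytes the log2 difference was -0.07 (SE 0.08, interval -0.24 to 0.10). The difference between these responses was 0.48 (SE 0.12, interval 0.22 to 0.74). Its call was lost without Mac_Dex replicate 5, where it was 0.39.

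Between states, NT5E was 4.02-fold higher in macrophages with vehicle, a log2 difference of 2.00 (SE 0.08, interval 1.83 to 2.18). With Dex it was 5.61-fold higher, a log2 difference of 2.48 (SE 0.09, interval 2.29 to 2.68). Net counts, which do not carry the sample factor, were 451 to 748 in monocytes and 1393 to 1742 in macrophages, so the states were also apart before scaling.

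BST1 ran the other way, lower in macrophages than in monocytes, and in monocytes slightly lower with Dex. The Mono_Vehicle samples read 1500 (1499.7), 1427 and 1443 units and the Mono_Dex samples 1259, 1332 and 1304. The Mac_Vehicle samples read 887, 867 and 801 units and the Mac_Dex samples 848 and 806. All monocyte samples were above all macrophage samples, all Mono_Vehicle samples were above all Mono_Dex samples, and the macrophage groups overlapped. The values were 44.9 to 244 times the highest negative control of their sample.

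The means of BST1 were 1456 ± 38.3 units (SD, n = 3) in Mono_Vehicle, 1298 ± 36.5 (SD, n = 3) in Mono_Dex, 852 ± 44.9 (SD, n = 3) in Mac_Vehicle and 827 ± 29.8 (SD, n = 2) in Mac_Dex. From low to high the order was Mac_Dex, Mac_Vehicle, Mono_Dex, Mono_Vehicle, and the lowest pair did not differ beyond their spread. With vehicle, BST1 was 1.71-fold lower in macrophages (log2 difference -0.77, SE 0.05, interval -0.89 to -0.66). With Dex it was 1.57-fold lower (log2 difference -0.65, SE 0.06, interval -0.78 to -0.52). Net counts were 1379 to 2191 in monocytes and 531 to 731 in macrophages.

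Dex in monocytes went with BST1 1.12-fold lower, a log2 difference of -0.17 (SE 0.05, interval -0.28 to -0.05). Its call was lost without any one of Mono_Vehicle replicate 1, Mono_Vehicle replicate 6, Mono_Dex replicate 2 or Mono_Dex replicate 6, at -0.14, -0.17, -0.14 and -0.17. It was -0.02 after each sample was centred on its median. In macrophages the log2 difference was -0.04 (SE 0.06, interval -0.17 to 0.09), and the difference between the responses was 0.12 (SE 0.08, interval -0.05 to 0.29). Replicates of NT5E and BST1 were close, with coefficients of variation of 3.29% to 9.07% for NT5E and 2.63% to 5.27% for BST1 over the groups.

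Counts of called members were read against the whole panel. A call is an adjusted p under 0.05 in limma, over the 379 probes tested, and 3 of the 5 members could be tested. With Dex in monocytes 1 of 3 was called, BST1, lower, where 39.1% of the panel was called, 16.9% higher and 22.2% lower. With Dex in macrophages 2 of 3 were called, DPP4 and NT5E, higher, where 47.5% of the panel was called, 22.4% higher and 25.1% lower. Between states with vehicle 2 of 3 were called, NT5E higher and BST1 lower, against 84.7% of the panel, 65.2% higher and 19.5% lower. Between states with Dex all 3 were called, DPP4 and NT5E higher and BST1 lower, against 79.7% of the panel, 61.7% higher and 17.9% lower. For the difference of the responses 2 of 3 were called, DPP4 and NT5E, both more positive in macrophages, against 25.9% of the panel, 13.5% more positive and 12.4% more negative. Groups that did not overlap numbered 1, 2, 2 and 3 of 3 members in the first 4 of these comparisons, against 54.6%, 58.6%, 85% and 85.8% of the panel. DPP4 was among the tested probes only because its Mac_Dex mean passed the floor, so its calls with Mac_Dex higher are not independent of that filter. Since the levels were known when the members were chosen, nothing is read from these counts.

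**Figure D3:**
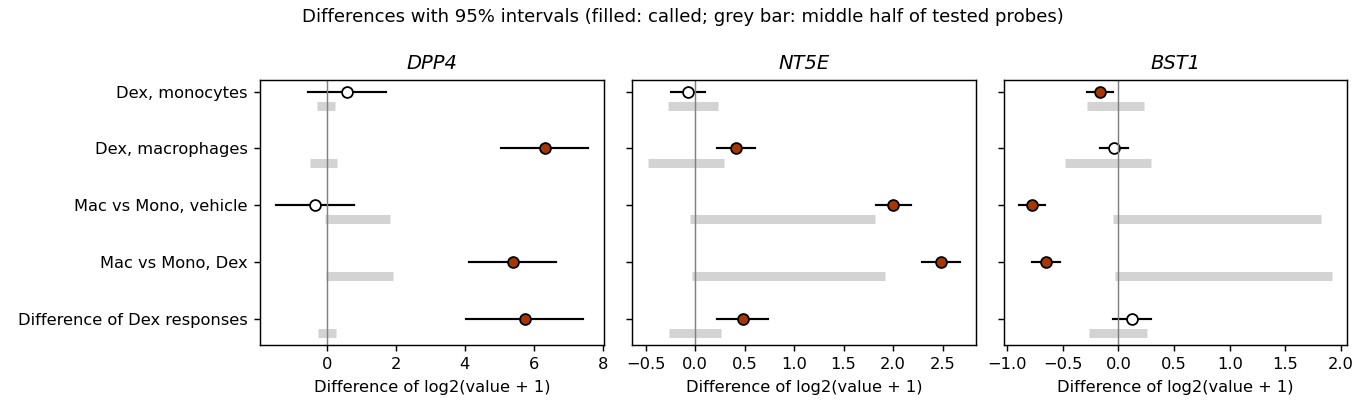
Differences of log2(value + 1) for DPP4, NT5E and BST1 in the 5 comparisons, with 95% intervals; filled points were called, and the grey bar spans the middle 50% of tested probes. DPP4 lies far to the right with Dex in macrophages (6.32), NT5E is above 0 and BST1 below 0 between cell states.

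The size of the difference between states depended on the scaling. Macrophage samples held more total signal than monocyte samples on the deposited scale, which carries the sample factor. On the deposited scale the panel median was 0.72 higher in macrophages with vehicle, and over 5 scalings it ran from -0.29 to 0.72. NT5E ran from 0.97 to 2.00 and BST1 from -1.81 to -0.77, so that neither changed sign. Relative to the panel median, NT5E was 1.24 to 1.39 higher and BST1 was lower, at -1.54 to -1.44. With Dex, NT5E between states ran from 1.44 to 2.48 and BST1 from -1.70 to -0.65 over the same scalings. As deposited, 247 panel probes were higher and 74 lower in macrophages with vehicle, while scaling to equal total signal gave 140 and 184, median-centring 149 and 178, quantile normalization 148 and 182, and housekeeping genes 216 and 100. With Dex the deposited scale gave 234 higher and 68 lower between states, and equal total signal gave 136 and 189, median-centring 145 and 168, quantile normalization 139 and 184, and housekeeping genes 208 and 101.

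**Figure D4:**
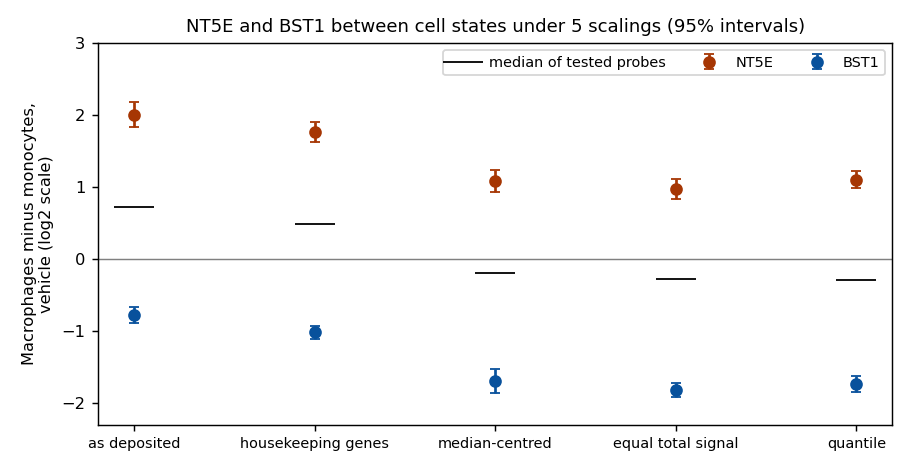
Macrophages minus monocytes with vehicle (log2 scale, 95% intervals) for NT5E, BST1 and the panel median under 5 scalings. NT5E stays above 0 (0.97 to 2.00) and BST1 below 0 (-1.81 to -0.77), while the panel median runs from -0.29 to 0.72.

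The Dex differences of NT5E and BST1 moved less in log2 units, but they were smaller than those between states, and some changed sign. In macrophages NT5E ran from 0.27 to 0.63 over the scalings, or 0.38 to 0.44 above the panel median, and BST1 ran from -0.18 to 0.18. In monocytes BST1 ran from -0.30 to -0.02 and NT5E from -0.20 to 0.07, while the panel median ran from -0.16 to 0.12. The split of panel calls moved with it: 64 higher and 84 lower as deposited became 104 and 65 after median-centring and 53 and 165 with equal total signal in monocytes. In macrophages 85 higher and 95 lower became 152 and 74, and 70 and 152. For the difference of the responses 51 and 47 became 73 and 42 after median-centring.

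The probes most like each measured member over the 11 samples were named by Pearson's r on log2(value + 1), as a description. For DPP4 they were GZMA, a granule protease (r 0.985), CD24, a GPI-anchored surface glycoprotein (0.983), and the kinase JAK1 (0.933). GZMA averaged 457 units and CD24 131 in Mac_Dex, both under the floor in the other 3 groups, as DPP4 was. JAK1 differed from them in that it was present throughout, at 286 and 344 units in monocytes with vehicle and with Dex, 356 in Mac_Vehicle and 776 in Mac_Dex. For NT5E the nearest were CD59, a GPI-anchored complement inhibitor (0.995), the phosphatase DUSP4 (0.994) and the receptor IGF2R (0.994). CD59 averaged 93.3 and 76.4 units in the monocyte groups, 992 in Mac_Vehicle and 1229 in Mac_Dex. For BST1 they were the granule protease CTSG (0.990), the calcium-binding protein S100A9 (0.986) and the Fc receptor FCGR2A (0.980). CTSG averaged 11281 units in Mono_Vehicle, 9177 in Mono_Dex, 1313 in Mac_Vehicle and 1304 in Mac_Dex. The samples form separate monocyte and macrophage clusters and share their sample factors, so r here mostly measures the step between states, or, for DPP4, the 2 Mac_Dex samples. By Spearman's rho, the nearest 3 probes included none of these for DPP4 and NT5E and 1 of 3 for BST1.

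**Figure D5:**
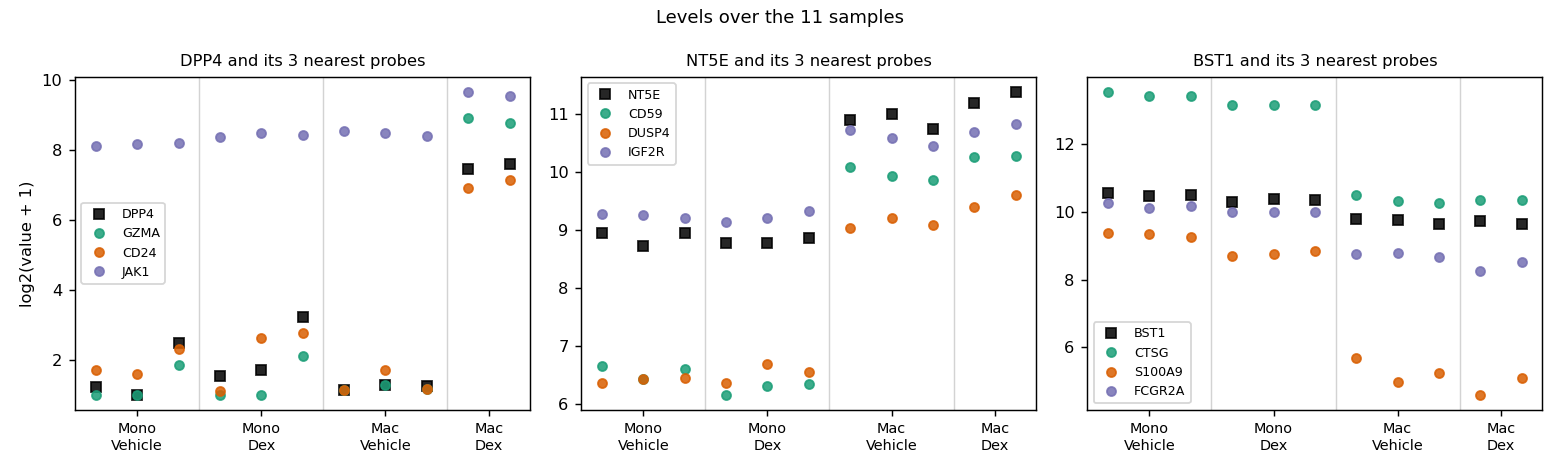
Levels of DPP4, NT5E and BST1 on the log2(value + 1) scale in the 11 samples, each with its 3 nearest probes by Pearson's r. GZMA and CD24 are high in the same 2 Mac_Dex samples as DPP4, CD59, DUSP4 and IGF2R are higher in macrophages as NT5E is, and CTSG, S100A9 and FCGR2A are lower as BST1 is.

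Of a list of 25 other genes of adenosine and purine handling, 1 was on the panel, ADA, the deaminase that removes adenosine and binds DPP4 in humans. This list was chosen with earlier results of these data known, so its p-values are a description only. Its means were 95.2 ± 11.8 units (SD, n = 3) in Mono_Vehicle, 88.4 ± 13.9 (SD, n = 3) in Mono_Dex, 134 ± 25.7 (SD, n = 3) in Mac_Vehicle and 92.4 ± 2.03 (SD, n = 2) in Mac_Dex. ADA fell 1.45-fold with Dex in macrophages (log2 difference -0.51, SE 0.20, limma adjusted p = 0.0471). The call was near the threshold and was kept under 9 of 20 alternatives, with adjusted p from 0.00658 to 0.233 and differences from -0.67 to -0.29. It was lost without any one of 7 samples: Mono_Vehicle replicate 3 or 6, Mono_Dex replicate 2, Mac_Vehicle replicate 1 or 3, or Mac_Dex replicate 1 or 5. In monocytes the log2 difference was -0.11 (limma adjusted p = 0.666), and the difference of the responses was -0.40 (limma adjusted p = 0.321). Between states with vehicle ADA was 0.47 higher in log2 in macrophages as deposited (limma adjusted p = 0.0222). That call was lost without Mono_Vehicle replicate 3 or 6 or Mac_Vehicle replicate 1 or 3 (0.35 to 0.46), and the difference turned to -0.44 after median-centring, -0.56 with equal total signal and -0.50 with quantile normalization. With Dex the difference between states was 0.07 as deposited (limma adjusted p = 0.749), ran from -0.96 to 0.07 over the 5 scalings, and was called, lower in macrophages, under 3 of them.

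Chemokines and cytokines that DPP4 is known to cleave numbered 11 on the panel of 14 listed, and 7 were tested. They too were listed with earlier results of these data known, so their p-values are a description only. In macrophages with Dex 1 rose and 3 fell in limma (median log2 difference -0.50, panel -0.03), with 1 higher and 1 to 4 lower over the scalings, where 22.4% of all tested probes were called higher and 25.1% lower. CXCL12, which attracts cells through CXCR4, rose by 1.48, a call lost without Mac_Dex replicate 1 (1.15). Its Mac_Vehicle mean was under the floor, so its fold was at least 2.44. The mean of CXCL12 passed the floor only in the groups with Dex, so its rises are not independent of that filter. No p-value is given for them, and CXCL12 is the 1 gene counted as higher with Dex in each cell state. CXCL2 fell by 2.16 (limma adjusted p = 2.35e-05) and CCL4 fell by 0.50 (limma adjusted p = 0.0380, a call lost under 1 of the 5 scalings and without any one of 5 samples, with -0.15 without Mac_Dex replicate 1). In monocytes with Dex, where DPP4 was at background, 1 rose and 3 fell (median -0.61, panel -0.03), with 0 to 1 higher and 3 to 4 lower over the scalings. The shares of all tested probes in monocytes were 16.9% higher and 22.2% lower. There CXCL12 rose by 0.93, a call lost under 1 of 5 scalings. It was also lost without any one of Mono_Vehicle replicates 3 and 6 and Mono_Dex replicates 2 and 6 (0.76 to 0.96). The lower group mean of CXCL12 and of CXCL2 was under the floor there, so their folds were at least 1.34 and at least 4.05. CXCL2 fell by 2.02 and CCL4 fell by 0.80 (limma adjusted p = 2.12e-05 and 0.00135). Between states with vehicle 4 rose and 1 fell (median 1.38, panel 0.72), with 3 to 4 higher and 1 to 3 lower over the scalings. As deposited, 65.2% of all tested probes were called higher and 19.5% lower. The monocyte means of CXCL10 and CXCL11 and the macrophage mean of CCL22 were under the floor, so these are bounds: CXCL10 was at least 10.99-fold and CXCL11 at least 3.26-fold higher in macrophages, and CCL22 at least 2.44-fold lower. By group mean, CXCL10 and CXCL11 passed the floor only in macrophages and CCL22 only in monocytes, so their calls between states are not independent of that filter. That each was called with the same sign under the 5 scalings is therefore no support for them. With Dex between states 6 rose and 1 fell as deposited (3 to 6 and 1 to 2 over the scalings), against 61.7% and 17.9% of all tested probes. The difference of the responses was called for 1, against 25.9% of all tested probes.

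Genes listed for a GPI anchor like that of NT5E and BST1 numbered 12 on the panel of 12, and 9 were tested. The list was chosen with earlier results of these data known, so its p-values are a description only. It does not separate forms of these proteins without the anchor. In macrophages with Dex 3 rose and 2 fell (median 0.13, panel -0.03), with 1 to 4 higher over the scalings. Of all tested probes, 22.4% were called higher and 25.1% lower. CD24 rose at least 6.53-fold from under the floor. It was tested only because its Mac_Dex mean passed the floor, so no p-value is given for it. CD59 rose by 0.31 (limma adjusted p = 0.0265). The call for CD59 was kept under 3 of the 5 scalings, and was lost without Mac_Vehicle replicate 3 or 5 or either Mac_Dex sample (0.26 to 0.32). CD14, the lipopolysaccharide co-receptor, fell by 2.07, and the urokinase receptor PLAUR fell by 0.76 (limma adjusted p = 1.91e-05 and 0.000224). In monocytes with Dex 1 rose and 3 fell (median 0.09, panel -0.03), with 0 to 2 higher and 2 to 4 lower over the scalings. The shares of all tested probes were 16.9% higher and 22.2% lower. Between states 7 rose and 1 fell with vehicle (median 1.79) and 8 rose and 1 fell with Dex (median 2.10), as deposited, and 6 or more were higher under each of the 5 scalings. With vehicle FCGR3A/B was under the floor in monocytes and at least 3.47-fold higher in macrophages. Its probe covers a gene pair, so this rise cannot be assigned to a GPI-anchored protein. The mean of FCGR3A/B passed the floor only in macrophages, so its calls between states are not independent of the floor. CD59 rose by 3.40 and CEACAM6 fell by 1.37. Of the whole panel, 65.2% and 61.7% were higher in these comparisons as deposited. The difference of the responses was called for 2, CD24, under the floor in 3 of the 4 groups, and CD59 (0.60), both more positive in macrophages. Of all tested probes, 13.5% were called more positive and 12.4% more negative.

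Other peptidases, not all of them surface or secreted, numbered 9 on the panel of 20 listed, and 7 were tested. Earlier results of these data were known when they were listed, so their p-values are a description only. With Dex in macrophages 2 rose and 1 fell (median 0.08, panel -0.03), with 2 to 5 higher and 1 to 3 lower over the scalings. Of all tested probes, 22.4% were called higher and 25.1% lower. The lysosomal dipeptidyl peptidase CTSC, which like DPP4 removes dipeptides, rose by 0.75, and the complement protease CFD rose by 0.28 (limma adjusted p = 2.38e-08 and 0.00301). The call for CFD was lost without Mac_Dex replicate 5 (0.20). Over the 5 scalings CTSC ran from 0.24 to 0.98 and CFD from 0.14 to 0.51. The urokinase gene PLAU fell by 1.96 (limma adjusted p = 2.88e-09). With Dex in monocytes none rose and 2 fell (median -0.03, panel -0.03), with 0 to 1 higher and 1 to 5 lower over the scalings. The shares of all tested probes were 16.9% higher and 22.2% lower. PLAU fell by 1.67 and CTSG fell by 0.30 (limma adjusted p = 4.86e-09 and 0.000562). The call for CTSG was kept under 4 of the 5 scalings, over which it ran from -0.57 to -0.15. Between states with vehicle 4 rose and 3 fell (median 1.19, panel 0.72), where 65.2% of all tested probes were higher and 19.5% lower. Among the called were CTSS (2.25), CTSC (1.56), CTSG (-3.10) and CFD (-1.65). Over the 5 scalings these kept their signs and calls but moved in size, CTSS from 1.00 to 2.25, CTSC from 0.21 to 1.56, CTSG from -4.21 to -3.10 and CFD from -2.69 to -1.65. With Dex 4 rose and 3 fell (median 0.90, panel 0.75), where 61.7% of all tested probes were higher and 17.9% lower. The difference of the responses was called for 3, all more positive in macrophages, led by CTSC (0.72) and CFD (0.32, a call lost without Mono_Vehicle replicate 1, Mono_Dex replicate 3 or Mac_Dex replicate 5, at 0.28, 0.31 and 0.24). Of all tested probes, 13.5% were called more positive and 12.4% more negative.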

How the data were processed

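RNA of 11 THP-1 samples was counted on the NanoString nCounter. Per the labels, the authors checked quality with nSolver; which genes and which background it normalized with is not stated in the labels. The deposited values are a linear signal, background-subtracted and scaled per sample, as their steps show (100% of low values within 0.1 of a whole step). Whole counts were not recovered, so no count test was run. Samples were grouped by the labels. Values were taken as log2(value + 1) of the deposited signal, and the 379 of 594 endogenous probes with a group mean of at least 20 units were fitted in limma 3.58.1 (R 4.3.3; lmFit, eBayes with trend) over all 4 groups, with Benjamini-Hochberg adjustment within each comparison. The fit was tested on simulated data. Intervals are 95%. Negative controls were multiplied by the sample factor for comparison. Folds are ratios of group means, with a mean under the floor set to 20.

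The members and lists were chosen with earlier results of these data known. Named were the members, the 3 probes nearest to each by r, and, from lists with over 8 measured genes, up to 2 called rises and 2 called falls per comparison. The main fit used no replicate block. Deviations of same-numbered samples correlated at r 0.23 and 0.18 in monocytes, above every other monocyte pair, and at -0.28 and -0.41 in macrophages. With 2 Mac_Dex samples, their deviations are mirror images, so the macrophage values cannot show pairing. Whether the numbers pair the samples was not settled. Alternatives were pseudocount, floor, 4 other scalings, no trend, the compared groups alone, the replicate block and each replicate left out.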

Additional observations from a re-analysis of the deposited data

Results flagged for a closer look

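The response of DPP4 to Dex differed between the cell states by 5.73 on the log2(value + 1) scale (SE 0.78, interval 4.04 to 7.42), more positive in macrophages, by the interaction term of the fit. DPP4 was under the floor in 3 of the 4 groups, so the size depends on the pseudocount. It was tested only because its Mac_Dex mean passed the floor.

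The response of NT5E differed by 0.48 (SE 0.12, interval 0.22 to 0.74), also by the interaction term and more positive in macrophages, where both Mac_Dex samples were above all Mac_Vehicle samples. Both differences belong to members chosen with their levels known and are values only.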

How the results depend on the processing

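The calls for DPP4 and NT5E with Dex in macrophages, for NT5E and BST1 between states, for DPP4 between states with Dex and for the difference of the DPP4 responses were kept under each alternative that could be run. The members were chosen with their levels known, and DPP4 passed the floor only in Mac_Dex. Kept calls therefore describe the dependence on settings and are no support for the differences. BST1 with Dex in monocytes lost its call after median-centring (-0.021), with the replicate block (-0.12) and without any one of 4 single replicates (-0.17 to -0.14); the range over all left-out replicates was -0.18 to -0.14. NT5E in the difference of the responses lost its call with the replicate block (0.49) and without Mac_Dex replicate 5 (0.39), and kept it without each other replicate (0.39 to 0.57 over all). Calls were gained with equal total signal for NT5E in monocytes (-0.20) and BST1 in macrophages (-0.18), after median-centring (-1.26) and quantile normalization (-1.09) for DPP4 between states with vehicle, where both groups were under the floor, and with quantile normalization for BST1 in the difference (0.26). The replicate block lowered the panel's calls from 148 to 62 with Dex in monocytes and from 98 to 32 for the difference. It was not run between states, since the block lies within a state. The causes of these changes were not tested. With a floor of 10 units, 0 members stay under it in every sample instead of 2, and with no filter MME was called with Dex in macrophages (-1.70) and between states with vehicle (2.02), all at values under the negative controls. The 2 Mac_Dex samples and the unknown background rule limit what low values can show.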
